A study of Mus musculus with 44 samples.

Results

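Arntl, Arntl2, Clock and Npas2 encode the activators of the circadian clock, and their transcripts were followed here in mouse kidney. The 4 genes were chosen by name, and they are 4 of the 24733 genes with a value above 0 in the deposited table. Arntl, Clock and Npas2 passed the filter for tests, a mean of at least 1 TPM, which 12874 genes passed, and Arntl2 did not. TPM is a transcript abundance that scales each transcript by its length and each library to the same total, so levels of different genes can be set side by side.

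The kidneys came from mice of the 129SV strain, 8 to 12 weeks old, all under night-restricted feeding. Their genotype was wild type (WT) or Arntl knockout (KO), for which the series text gives Bmal -/- and no allele, promoter or Cre. Bmal1 is another name of Arntl. Polyadenylated RNA was sequenced at zeitgeber times (ZT) 0, 4, 8, 12, 16 and 20, with 2 libraries, A and B, per genotype at every time, 12 groups in all. The labels do not say whether A and B are separate animals, so the spread between libraries behind the p-values may be technical. For the genotype difference over all times, that spread also holds any change of the difference over the day.

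ARNTL (BMAL1) pairs with CLOCK or with its paralog NPAS2, and the pair binds E-box sequences and switches on Per, Cry, Nr1d1, Nr1d2 and Dbp. PER and CRY proteins inhibit the pair. REV-ERB proteins, encoded by Nr1d1 and Nr1d2, repress genes with ROR elements, which ROR proteins activate, and Arntl, Clock and Npas2 are known targets of this second loop. ARNTL2 is a paralog of ARNTL that can also pair with CLOCK.

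One library went against its label. On the first principal component (26.1% of the variance) the library labelled KO ZT4 A lay at -8.3, the remaining KO libraries from 18.4 to 51.0 and the WT libraries from -44.8 to -9.4. In 1302 of the genes tested, the other 11 KO libraries did not overlap the 12 WT libraries, and in 1081 of these (83.0%) the library labelled KO ZT4 A lay within the WT range. For each other KO library the remaining 11 include the one labelled KO ZT4 A, and only 215 to 237 genes set them apart from WT. Of these genes 0 to 22 (0% to 9.28%) lay within the WT range in the library left out. The gene sets are therefore not alike. Nr1d2 was at 14.7 TPM in this library, against 14.9 and 20.6 TPM in WT at ZT4 and 0.893 to 3.21 TPM in the other KO libraries. The library was kept under its label, and results that rest on it are given with and without it. Sequencing depth is unknown, since every library summed to between 999999 and 1000001 TPM.

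Arntl (ENSMUSG00000055116, GRCm38 chr7:113207465-113314126, plus strand) is the common partner of CLOCK and NPAS2. GENCODE M21 annotates 6 Arntl transcripts and the table holds 1 of them, Arntl-201 (20 exons, 2908 bases), so the Arntl values are those listed for this transcript. The coding Arntl transcripts that are not listed share exons with it, so its value may not be of this isoform alone. Nothing in a TPM value shows which exons its reads came from, so the level of Arntl-201 in KO libraries neither checks the deletion nor says which part of the transcript remained.

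The start of Arntl holds copies of a ROR-type element, shown here because Arntl had the smallest p-value of all genes for its WT rhythm. The motif AAAGTAGGT, searched on both strands of RefSeq promoter windows (GRCm38.p6, 250 bases before to 50 after each start), was chosen after the sequences were seen. It was found in 60 of 32851 windows (0.183%), both Arntl windows among them, and 3 windows held more than 1 copy. The copies lie in exon 1 of Arntl-201, 36 and 72 bases after its first base, and are in capitals on the plus strand.
Arntl copy 1, chr7:113207492-113207521: attggtcggAAAGTAGGTtagtggtgcgac
Arntl copy 2, chr7:113207528-113207557: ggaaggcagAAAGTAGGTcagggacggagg
The ROR core AGGTCA, which overlaps the second copy, was found in 5340 windows (16.3%) and in 2 of the 7 windows of the 4 genes. The other match was upstream of a Clock start on the minus strand, in no exon of Clock-201, and reads TGACCT on the strand of the gene.
Clock, chr5:76303601-76303630: tttggcctcTGACCTgacagatgacagatc
None of the 7 windows held the E-box CACGTG (7.15% of all windows) or the D-box forms TTATGTAA (0.938%) and TTACGTAA (0.119%), and the windows of Npas2 and Arntl2 held none of the 5 motifs. A match is a description of letters and not a measured binding site.

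Arntl swung over the day in WT and was nearly level in KO. In WT its libraries A and B held 12.9 and 12.4 TPM at ZT0, 6.16 and 4.71 at ZT4, 0.690 and 0.527 at ZT8, 0.295 and 0.527 at ZT12, 1.74 and 2.03 at ZT16, and 9.38 and 8.24 at ZT20. The order of WT means was ZT0, ZT20, ZT4, ZT16, ZT8 and ZT12, and of neighbours in that order only ZT8 and ZT12 overlapped. In KO the libraries held 4.72 and 5.11 TPM at ZT0, 6.28 and 4.98 at ZT4, 5.66 and 5.00 at ZT8, 5.94 and 5.70 at ZT12, 6.20 and 5.42 at ZT16, and 4.19 and 6.11 at ZT20. All 12 KO libraries therefore lay inside the WT range, below the WT libraries of ZT0 and ZT20 and above those of ZT8, ZT12 and ZT16.

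**Figure D1:**
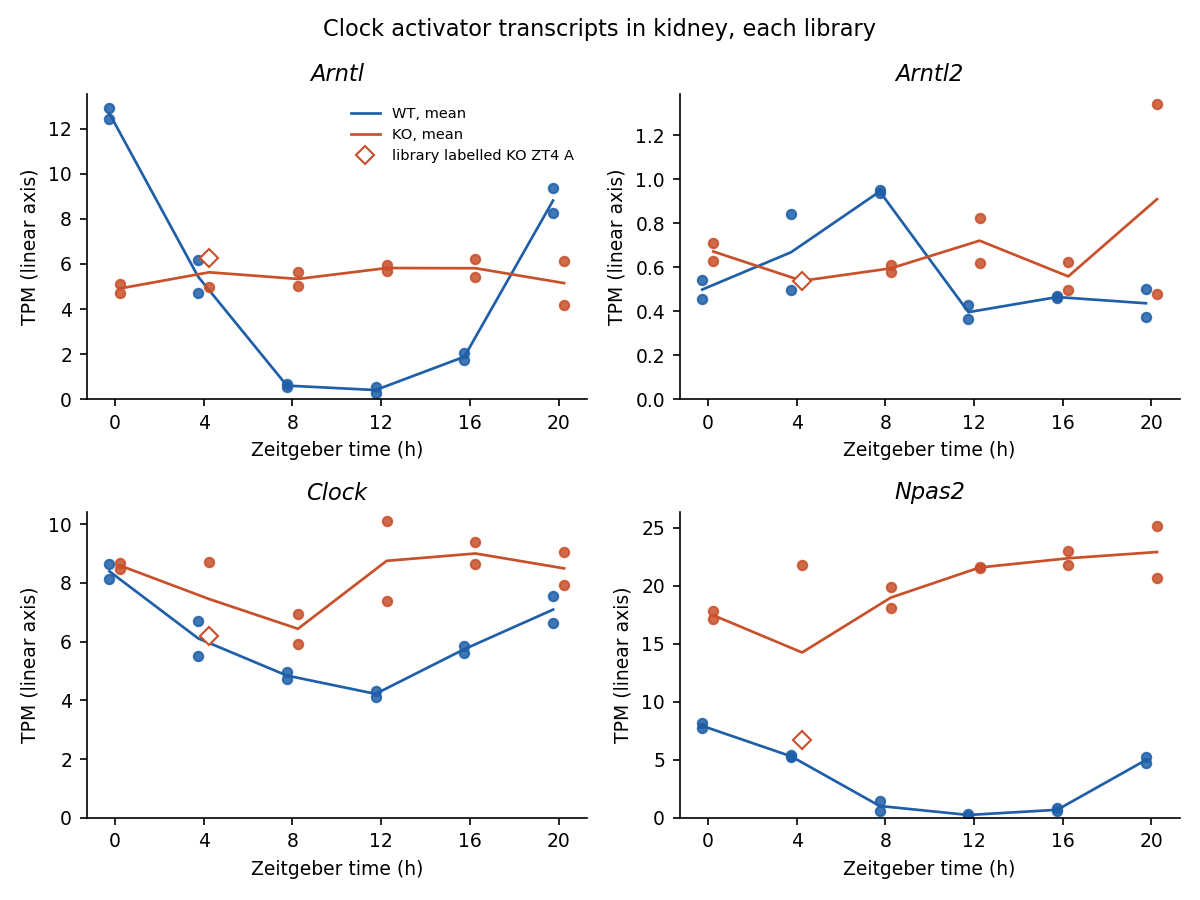
TPM (y, linear) of Arntl, Arntl2, Clock and Npas2 against zeitgeber time (x, hours) in each library, with WT in blue, KO in orange, lines through the means of 2 libraries and an open diamond for the library labelled KO ZT4 A. Arntl and Npas2 fell to under 1 TPM in WT at ZT12 and had KO means of 5.44 and 19.6 TPM, with Npas2 at 6.68 TPM in the library labelled KO ZT4 A.

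The fitted 24-hour rhythm of Arntl in WT spanned 4.99 log2 units from peak to trough (SE 0.20) and peaked at 23.0 h (SE 0.15), with an adjusted p of 1.27e-12 (limma). Of all genes tested 13.7% had a WT rhythm, and Arntl ranked 1st by p-value and 24th by peak-to-trough size. In KO the span was 0.20 (SE 0.20, adjusted p 0.796), where 3.64% of genes tested passed. The rhythm differed between genotypes (adjusted p 1.04e-09), as it did in 0.629% of genes, and Arntl ranked 1st in this test too. Without the library labelled KO ZT4 A the KO value was 0.27 (SE 0.21, adjusted p 0.686) and the difference kept its call (adjusted p 2.29e-09).

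In a fit of a single genotype difference shared by all times, Arntl did not pass the threshold. That fit has no term for a difference that changes over the day, so its SE also holds the change in rhythm. In the fit of each time on its own the SE of Arntl was 0.22. WT libraries averaged 4.97 TPM ± 4.76 (SD, n = 12) and KO libraries 5.44 TPM ± 0.654 (SD, n = 12). The KO mean was 0.430 of the WT mean at ZT0. The log2 difference, KO minus WT with time as a term, was 1.002 (SE 0.44) and did not pass (adjusted p 0.0570), while 50.9% of all genes tested were higher in KO. With single libraries dropped in turn it passed in 7 of 24 cases, all 7 without a library of ZT0 or ZT20, with adjusted p from 0.0336 to 0.0474. It was 0.61 with a pseudocount of 1.

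Npas2 (ENSMUSG00000026077, chr1:39193731-39363236, plus strand) encodes the paralog of CLOCK. It had the largest difference between genotypes of the 3 genes. In WT it held 7.72 and 8.14 TPM at ZT0, 5.41 and 5.21 at ZT4, 1.44 and 0.598 at ZT8, 0.143 and 0.350 at ZT12, 0.565 and 0.821 at ZT16, and 5.27 and 4.71 at ZT20. The WT order was ZT0, ZT4, ZT20, ZT8, ZT16 and ZT12, and the libraries of ZT4 and ZT20 overlapped, as did those of ZT8 and ZT16. In KO it held 17.1 and 17.8 TPM at ZT0, 6.68 and 21.8 at ZT4, 18.1 and 19.9 at ZT8, 21.5 and 21.6 at ZT12, 21.8 and 23.0 at ZT16, and 25.1 and 20.7 at ZT20. In 11 of 12 KO libraries Npas2 was above the highest WT library. The exception, at 6.68 TPM, was the library labelled KO ZT4 A, above both WT libraries of ZT4 and below those of ZT0.

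The log2 difference of Npas2 between genotypes was 3.26 (SE 0.47, adjusted p 1.95e-05), and 3.48 (SE 0.44, adjusted p 4.27e-06) without the library labelled KO ZT4 A. Ordered from the largest increase in KO to the largest decrease, Npas2 ranked 12th of the 12874 genes, and by p-value it ranked 1295th. Its KO mean, 19.6 TPM ± 4.67 (SD, n = 12), was 2.47 times the highest WT time mean, so the KO mean exceeded the WT daily maximum and not only the daily average. In WT the rhythm spanned 4.77 log2 units (SE 0.34, adjusted p 8.39e-08) with a peak at 0.23 h (SE 0.27), and ranked 7th by p-value. In KO the value was 0.78 (SE 0.34, adjusted p 0.335), and 0.29 (SE 0.29, adjusted p 0.797) without the library labelled KO ZT4 A, which moves it by over 1.5 times. The rhythm differed between genotypes with an adjusted p of 9.96e-06 and ranked 5th.

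Of 3 annotated Npas2 transcripts, 2 carried nearly all of the signal. The long one (ENSMUST00000056815, 21 exons, 4236 bases) has an annotated coding sequence of 2448 bases. The short one (ENSMUST00000173050, 3 exons, 484 bases) starts 481 bp upstream with its own first exon of 279 bases, shares exon 2 with the long one and ends 1 base short of the end of its exon 3. The tool that made the values had only the first exon and its junction to tell the short transcript from the long one, so the split between them is uncertain. The third, a noncoding transcript of 474 bases, was above 0 in 3 of 24 libraries, all KO, at no more than 0.120 TPM.

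Both Npas2 transcripts moved together. The long one ranged from 0.143 to 5.68 TPM (median 1.77) in WT and from 4.20 to 17.4 TPM (median 14.2) in KO. The short one ranged from 0 to 2.46 TPM (median 1.02) in WT and from 2.48 to 7.69 TPM (median 6.27) in KO. In KO the lowest library for both was the one labelled KO ZT4 replicate A, and it was the only KO library to overlap WT for the long transcript. For the short transcript every KO library was above every WT library.

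In the fit over 34231 transcripts the KO minus WT difference was 3.20 log2 units (SE 0.44, adjusted p 2.41e-05) for the long and 3.02 (SE 0.42, adjusted p 2.39e-05) for the short Npas2 transcript. Arntl-201 and Clock-201, the only transcripts listed for their genes, repeat the gene values. The long and short Npas2 transcripts share sequence and their split is uncertain, so the counts below are not of independent features. Of the 4 transcripts of the clock activators tested, 3 were higher in KO, against 26.9% of all transcripts, and Arntl-201 was not (1.002, adjusted p 0.0798). All 4 had a WT rhythm, against 5.16% of transcripts. None had a KO rhythm at an adjusted p under 0.05 and 1 did at an unadjusted p (limma), against 0.777% of transcripts called. For 3 the rhythm differed between genotypes, against 0.184%, and Clock-201 was the exception (adjusted p 0.166).

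**Figure D2:**
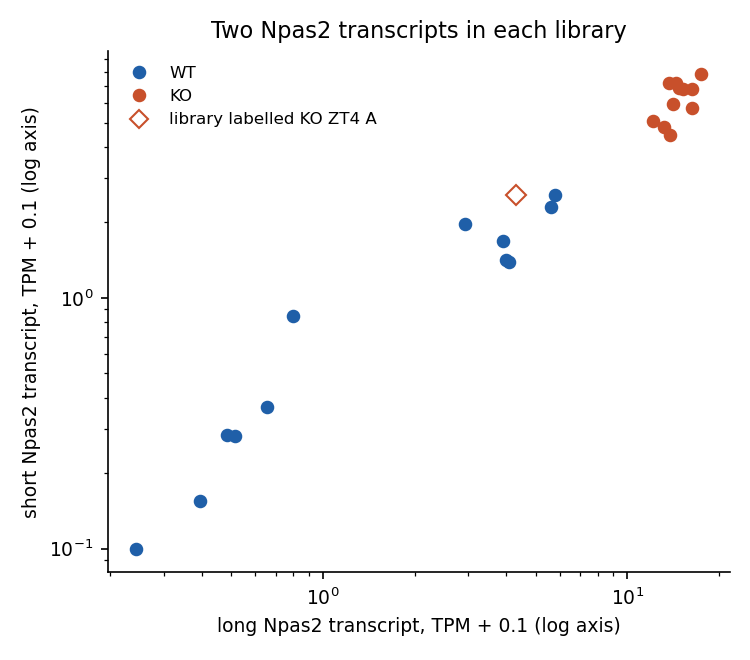
TPM + 0.1 of the long (x, log axis) and the short Npas2 transcript (y, log axis), 1 point per library, with WT in blue, KO in orange and an open diamond for the library labelled KO ZT4 A. The other 11 KO libraries lie above all WT libraries on both axes.

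The share of the short transcript in Npas2 TPM averaged 28.4% ± 12.5 (SD, n = 12) over WT libraries and 30.1% ± 3.67 (SD, n = 12) over KO libraries. The WT libraries ranged from 0% to 51.7%, with both ends at times when Npas2 was under 1.5 TPM, and the KO libraries from 24.1% to 37.1%. The difference of 1.69 percentage points was within this spread (adjusted p 0.657, exact permutation test, two-sided, genotype labels exchanged within each time in 46656 ways, over 2 transcripts).

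Clock (ENSMUSG00000029238, chr5:76209868-76304792, minus strand) encodes the usual partner of ARNTL, a protein with histone acetyltransferase activity. The table holds 1 of its 6 annotated transcripts, Clock-201. In WT its libraries held 8.13 to 8.66 TPM at ZT0, 5.52 to 6.71 at ZT4, 4.71 to 4.98 at ZT8, 4.12 to 4.33 at ZT12, 5.63 to 5.86 at ZT16, and 6.65 to 7.54 at ZT20. In KO they held 8.48 to 8.70 TPM at ZT0, 6.20 to 8.71 at ZT4, 5.92 to 6.96 at ZT8, 7.39 to 10.1 at ZT12, 8.63 to 9.38 at ZT16, and 7.93 to 9.07 at ZT20. Genotypes overlapped at ZT0 and ZT4, and at the other 4 times both KO libraries were above both WT libraries. In the fit of each time Clock passed at ZT12 and ZT16, as did 38.2% and 21.5% of all genes, and not at ZT8 or ZT20. The lower KO library of ZT4 was the one labelled KO ZT4 replicate A.

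Clock was higher in KO by 0.44 log2 units (SE 0.09, adjusted p 4.54e-04), and by 0.29 (SE 0.08, adjusted p 0.00564) under median-of-ratios scaling. That scaling matters for small changes: the median difference over all genes tested was 0.148 log2 units as deposited and 0.002 under it. Unlike Npas2, the KO mean of Clock, 8.12 TPM ± 1.28 (SD, n = 12), was close to the WT mean at ZT0 (0.967 of it). In WT its rhythm was 0.90 log2 units from peak to trough (SE 0.13, adjusted p 4.41e-04), with a peak at 22.9 h (SE 0.56). In KO it was 0.40 (SE 0.13, adjusted p 0.159). The difference in rhythm did not pass (adjusted p 0.0756), but did under median-of-ratios scaling (adjusted p 0.0342).

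Over the 3 genes tested, 2 were higher in KO, where 50.9% of all genes were, so this count is near the background. All 3 had a WT rhythm (13.7% of all genes) and 2 differed in rhythm (0.629%). None passed for a KO rhythm (3.64%), and Clock alone did at an unadjusted p under 0.05 (limma). The fitted WT peaks of Arntl and Clock, at 23.0 and 22.9 h, differed by less than the SE of the Clock peak, and that of Npas2 followed at 0.23 h. Across the 12 WT libraries Pearson's r of log2 values was 0.951 for Arntl with Clock, 0.935 for Arntl with Npas2 and 0.865 for Npas2 with Clock. The points share libraries and 6 times, so these are descriptions. Across all 12 KO libraries r was -0.024, -0.210 and 0.592 in the same order. Across the 11 KO libraries without the one labelled KO ZT4 replicate A, r was 0.203, 0.501 and 0.449.

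The differences between genotypes were spread unevenly over the day. Of 18 pairs of gene and time, 10 passed in a fit with each time on its own, 9 of them higher in KO. Without the library labelled KO ZT4 A 13 passed, and without KO ZT4 replicate B 12. Differences and SE below are on the log2(TPM + 0.1) scale, which understates the change of low values.

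At ZT0, where 13.4% of genes tested passed, Arntl fell by 1.35 in KO (SE 0.22, adjusted p 0.00839). Npas2 differed by 1.13 (adjusted p 0.0977) and Clock by 0.03. Leaving out either KO library of ZT4 kept the Npas2 value at ZT0 and brought it past the threshold, with an adjusted p of 0.0217 without A and 0.0216 without B. Leaving out WT ZT0 replicate A or KO ZT0 replicate A took Arntl to adjusted p of 0.0656 and 0.0775. At ZT4, where the WT level of Arntl crosses that of KO, 0% of genes passed (limma), 1637 genes had an unadjusted p under 0.05, and 11.6% passed without the library labelled KO ZT4 A. Npas2 differed there by 1.17 (SE 0.44, adjusted p 0.378) with that library and by 2.02 (SE 0.38, adjusted p 0.00707) without it. Arntl differed by 0.05 and -0.11, neither past the threshold.

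At ZT8, ZT12 and ZT16, where 14.6%, 38.2% and 21.5% of genes passed, Arntl and Npas2 were higher in KO at each time. Npas2 was higher by 4.20, 6.03 and 4.84 (SE 0.44 each), with adjusted p from 4.12e-06 to 2.07e-04. In means this was 21.6 TPM against 0.247 TPM at ZT12. Arntl was higher by 2.95, 3.57 and 1.57 (SE 0.22 each), with adjusted p from 5.72e-07 to 6.55e-04. Clock was higher by 1.02 at ZT12 (SE 0.16, adjusted p 5.31e-04) and by 0.64 at ZT16 (adjusted p 0.0136), and its difference of 0.40 at ZT8 did not pass (adjusted p 0.107). The Clock call at ZT16 was lost without WT ZT16 replicate A (adjusted p 0.0961) and without KO ZT16 replicate A (adjusted p 0.0809).

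At ZT20, where 3.72% of genes passed, Npas2 was higher by 2.17 (SE 0.44, adjusted p 0.0203). Leaving out any library of ZT20 ended this call, with adjusted p from 0.0742 to 0.139. Arntl differed by -0.78 (SE 0.22, adjusted p 0.0568), and passed in 4 of 24 cases with a single library dropped, KO ZT4 A or B or WT ZT12 A or B, where adjusted p ran from 0.0381 to 0.31 over all 24. Clock differed by 0.26 (adjusted p 0.392).

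**Figure D3:**
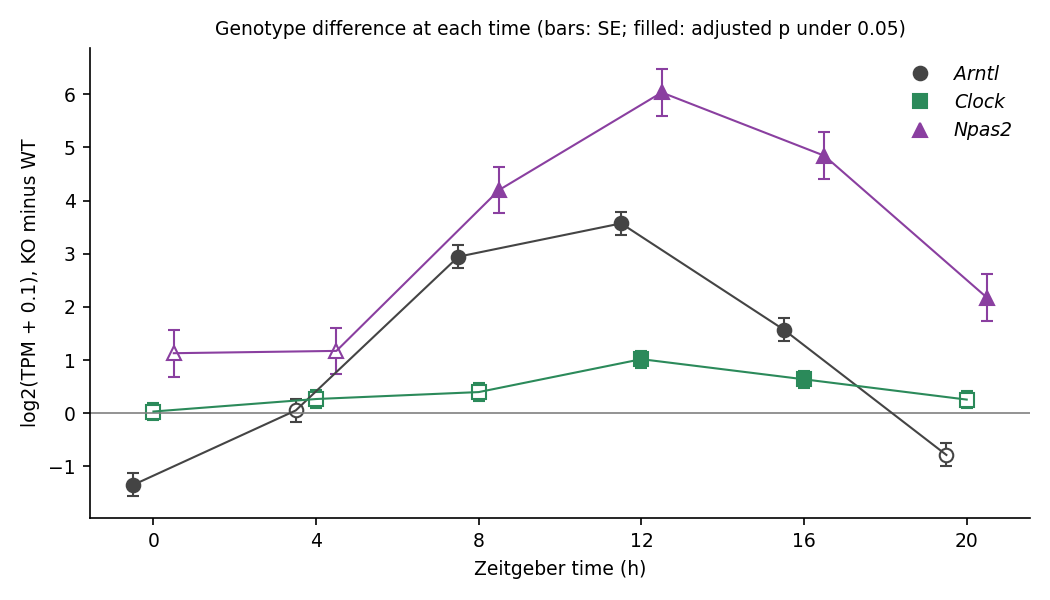
KO minus WT difference in log2(TPM + 0.1) (y) at each zeitgeber time (x, hours) for Arntl, Clock and Npas2, with bars of 1 SE and filled points where the adjusted p was under 0.05. The largest difference of each gene is at ZT12, and as deposited Arntl alone is below 0, at ZT0 and ZT20 (under median-of-ratios scaling Clock at ZT0 and Arntl at ZT4 are too, at -0.12 and -0.081).

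Arntl2 (ENSMUSG00000040187, chr6:146796055-146833529, plus strand), the paralog of Arntl, averaged 0.617 TPM over all libraries, below the filter for tests. In WT its libraries held 0.456 to 0.542 TPM at ZT0, 0.496 to 0.840 at ZT4, 0.936 to 0.953 at ZT8, 0.366 to 0.427 at ZT12, 0.460 to 0.470 at ZT16, and 0.372 to 0.501 at ZT20. In KO they held 0.630 to 0.713 TPM at ZT0, 0.538 to 0.539 at ZT4, 0.579 to 0.612 at ZT8, 0.618 to 0.824 at ZT12, 0.495 to 0.622 at ZT16, and 0.478 to 1.34 at ZT20. In these sums KO libraries were above WT at ZT0, ZT12 and ZT16, below at ZT8, and overlapped at ZT4 and ZT20. With 2 libraries on each side this is a description.

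Fitted without the filter, over 24733 genes, Arntl2 differed between genotypes by 0.21 log2 units (SE 0.16, adjusted p 0.349). Its peak-to-trough difference was 0.80 (SE 0.28, adjusted p 0.208) in WT and 0.26 (SE 0.28, adjusted p 0.901) in KO. Of 9 annotated transcripts the table holds 7, and the coding transcript of 17 exons (ENSMUST00000111639) carried most of the signal. It ranged from 0.327 to 0.501 TPM (median 0.415) in WT and from 0.426 to 0.792 TPM (median 0.544) in KO. The WT high at ZT8 and the KO high at ZT20 were those of a noncoding transcript of 238 bases (ENSMUST00000123444) listed at 0 in 20 of 24 libraries. It stood at 0.419 and 0.536 TPM in WT at ZT8 and at 0.719 TPM in the higher KO library of ZT20. The coding transcript went the other way at ZT8, with 0.366 and 0.494 TPM in WT and 0.524 and 0.579 TPM in KO.

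The paralogs shifted in their pairs. Npas2 made up 3.36% to 50.0% of the summed TPM of Clock and Npas2 in WT (median 32.3%) and 66.3% to 75.3% in KO without the library labelled KO ZT4 A, which stood at 51.9%. In WT at ZT0 the 2 genes were at like levels, 47.1% and 50.0% Npas2, and at ZT12 Clock made up nearly all, with 3.36% and 7.48% Npas2. In KO Npas2 was the more abundant at every time, and no KO library overlapped WT in this summed share. The sum counts the short Npas2 transcript, whose split from the long one is uncertain. In the library labelled KO ZT4 A the long transcript held 4.20 TPM and Clock 6.20 TPM, so Npas2 led there only with the short one counted. In WT at ZT0 the long transcript held 5.51 and 5.68 TPM, and Clock 8.66 and 8.13 TPM. The summed TPM of both genes was 4.26 to 16.4 TPM in WT and 23.99 to 34.2 TPM in the 11 KO libraries without the one labelled KO ZT4 A. That library held 12.9 TPM, within the WT range.

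Arntl2 made up 3.41% to 64.0% of the summed TPM of Arntl and Arntl2 in WT and 7.25% to 24.3% in KO. The WT share was over 40% only at ZT8 and ZT12, when Arntl itself was under 0.7 TPM. At ZT8 the noncoding Arntl2 transcript of 238 bases held 0.536 and 0.419 TPM of WT sums of 0.953 and 0.936 TPM. It held 0.719 of 1.34 TPM in the KO library at 24.3%, replicate A of ZT20. Both upper ends of the share therefore count a noncoding transcript. These shares are of RNA levels and the KO value counts Arntl-201 whatever its reads encode.

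**Figure D4:**
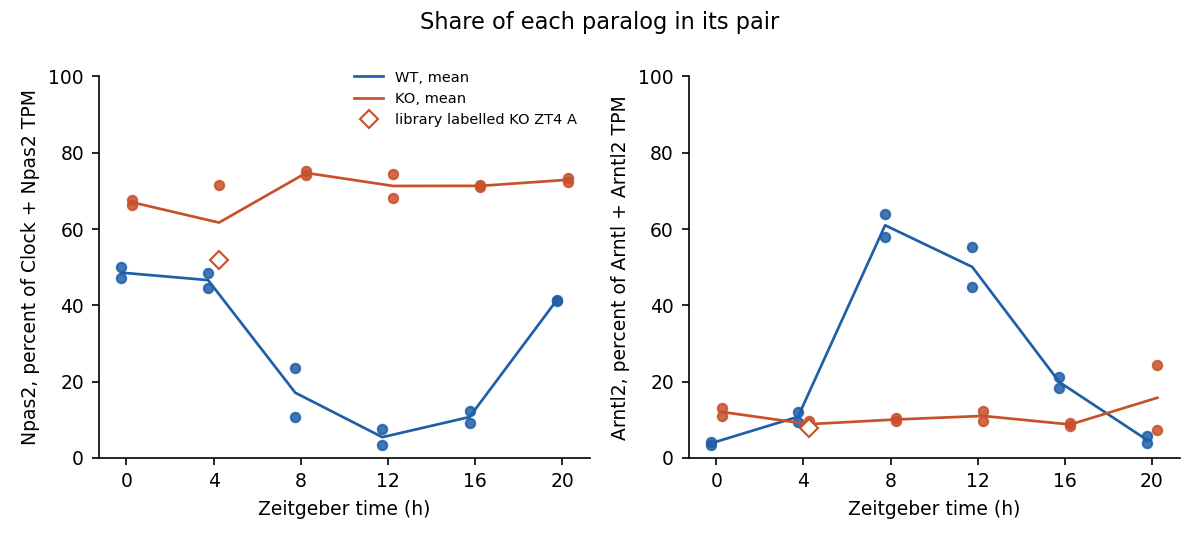
Npas2 as a percent of Clock plus Npas2 TPM (left) and Arntl2 as a percent of Arntl plus Arntl2 TPM (right) against zeitgeber time (x, hours), 1 point per library with lines through the means of 2 libraries, WT in blue, KO in orange and an open diamond for the library labelled KO ZT4 A. Npas2 lies at 50.0% or less in WT and above that in KO, and Arntl2 exceeds 40% only in WT at ZT8 and ZT12. Shares count all listed transcripts of a gene, the short Npas2 and the noncoding Arntl2 transcripts included.

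Among the genes tested, those most like each activator over the 12 WT libraries were taken by Pearson's r of log2 values. For Arntl they were Leo1 (r 0.986), a subunit of the PAF1 transcription elongation complex, Tmem132a (0.983), Clic4 (0.977), Jpt2 (0.972) and Avpr1a (0.971), the vasopressin V1a receptor. Leo1 ranged from 2.85 to 8.49 TPM in WT, with a peak at 22.5 h, and its rhythm differed between genotypes (adjusted p 5.42e-05). Avpr1a ranged from 1.20 to 5.25 TPM in WT, and was higher in KO by 1.54 log2 units (adjusted p 1.18e-05). Lowest were Dbp (-0.977), Mcm10 (-0.974) and Per3 (-0.965). In the 12 KO libraries r with Arntl was between -0.472 and -0.268 for all 5 of the most alike, and between -0.359 and -0.023 in 11 without the library labelled KO ZT4 A.

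For Npas2 the most alike were Ppm1h (r 0.980), Mapkapk2 (0.973), a kinase downstream of p38, Slc16a1 (0.972), the monocarboxylate transporter MCT1, Eef1akmt1 (0.970) and Cluh (0.968). Slc16a1 ranged from 3.97 to 18.7 TPM in WT, with a peak at 23.8 h, and had a rhythm that differed between genotypes (adjusted p 5.50e-06). It was higher in KO by 1.20 log2 units (adjusted p 1.45e-04). As deposited all 5 were higher in KO, as were all of those named above as most like Arntl, against the 50.9% of all genes. Lowest were Alms1-ps2 (-0.967), Per3 (-0.949) and Igfbp4 (-0.941).

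For Clock the most alike were Mrpl36 (r 0.977), Aldh8a1 (0.976), Tspan14 (0.975), Calr (0.972), the endoplasmic reticulum chaperone calreticulin, and Eif3b (0.972). Calr had a rhythm in both genotypes, with a WT span of 0.94 log2 units and a KO span of 0.87 (adjusted p 4.12e-06), which Clock did not. Tspan14 and Eif3b were called higher in KO as deposited, and the others most like Clock were not. Lowest were Dbp (-0.966), Castor1 (-0.942) and Mcm10 (-0.941). The r values for all 3 genes share the same 12 libraries and were picked as the extremes of 12874.

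The regulators of the ROR element loop changed in both directions in KO. Of those described here Nfil3 was higher and Nr1d1, Nr1d2 and Rora were lower, and each of these calls held without the library labelled KO ZT4 A and under median-of-ratios scaling. Nr1d2, a repressor, had a median of 20.4 TPM in WT and 2.02 TPM in KO and fell by 2.72 log2 units (SE 0.31, adjusted p 1.66e-06). Nr1d1, its paralog, had medians of 12.8 and 2.04 TPM and fell by 1.83 (SE 0.41, adjusted p 9.19e-04). Rora fell by 0.26 (SE 0.07, adjusted p 0.00294).

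The same genes were spread over the WT day. Fitted peaks were at 8.13 h for Nr1d1, 10.3 h for Nr1d2 and 21.8 h for Nfil3, a repressor at D-boxes, and these had a WT rhythm, while Rora did not pass (adjusted p 0.0808). None of them had a KO rhythm, and Nr1d2 had an unadjusted p under 0.05 (limma). The rhythm of Nfil3 differed between genotypes (adjusted p 4.39e-06), and without the library labelled KO ZT4 A that of Nr1d1 did too (adjusted p 9.29e-06, against 0.0871 with it).

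The E-box genes are the direct targets of the activators. Of 11 genes 10 were tested, 2 were higher and 5 lower in KO, against 50.9% and 10.0% of all genes tested, with a median of -0.30 log2 units. Under median-of-ratios scaling 6 were lower, against 22.2% of all genes. Dbp, an output transcription factor, ranged from 0.989 to 71.2 TPM in WT and from 2.30 to 5.12 TPM in KO and fell by 1.64 (SE 0.52, adjusted p 0.0111). Per3 fell by 1.44 (SE 0.25, adjusted p 7.97e-05) and Ciart, a repressor of the CLOCK pair, fell by 1.65 (SE 0.39, adjusted p 0.00154). The cryptochromes went the other way: Cry1 was higher by 2.01 (SE 0.34, adjusted p 7.85e-05) and Cry2 by 0.75 (SE 0.15, adjusted p 2.35e-04). Cry1 is known to carry ROR elements beside its E-boxes, and their part in its change was not tested.

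Of the 10 E-box genes 9 had a WT rhythm, against 13.7% of all genes, and 1, Per1, had a KO rhythm, against 3.64%. The KO span of Per1 was 1.81 log2 units (adjusted p 0.0279), and 1.60 without the library labelled KO ZT4 A, where it did not pass (adjusted p 0.0637). WT peaks ran from 10.6 h for Dbp to 19.0 h for Cry1. The WT peak-to-trough was 6.04 log2 units for Dbp (SE 0.24), 2.97 for Per3 (SE 0.21), 1.86 for Tef (SE 0.15) and 4.26 for Ciart (SE 0.48). The rhythm differed between genotypes in 4 of 10, namely Dbp, Per3, Tef and Ciart, against 0.629% of all genes, and in 6 without the library labelled KO ZT4 A, against 0.870%.

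**Figure D5:**
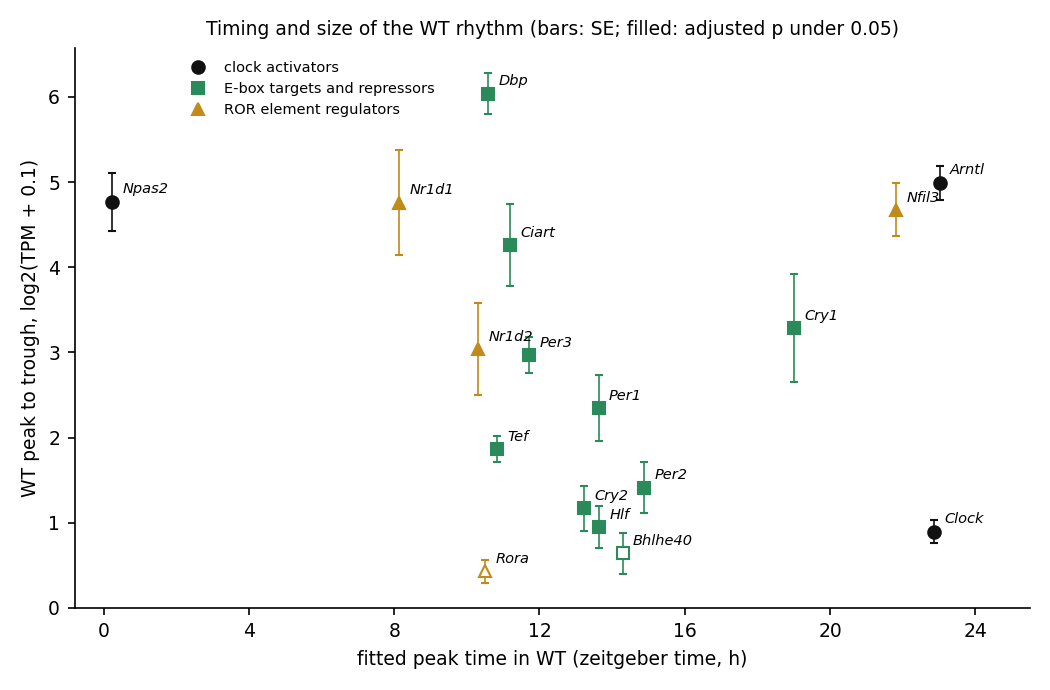
Fitted WT peak-to-trough size (y, log2 units) against fitted WT peak time (x, zeitgeber hours) for the activators (circles), E-box genes (squares) and 4 ROR element regulators (triangles), with bars of 1 SE and filled points where the adjusted p was under 0.05. The activators lie near 23 and 0.23 h, and Dbp, Nr1d1 and Nr1d2 between 8 and 11 h.

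Among enzymes and cofactors that act on the activators, differences were small and depended on the scaling. Of 19 genes, all tested, 7 were higher in KO and 0 lower (10 in either direction at an unadjusted p under 0.05, limma), against 50.9% and 10.0% of all genes. Under median-of-ratios scaling 3 were higher and 4 lower, against 22.1% and 22.2%. Without the library labelled KO ZT4 A 10 were higher, against 52.6%. The counts of higher genes are near or below the background. Wdr5, a subunit of histone methyltransferase complexes, was higher by 0.33 (SE 0.04, adjusted p 1.48e-06), and Btrc, a ubiquitin ligase subunit that acts on PER proteins, by 0.28 (SE 0.05, adjusted p 4.78e-05). Both kept the call and direction under median-of-ratios scaling, as did Crebbp, an acetyltransferase (0.24, SE 0.05, adjusted p 3.74e-04). Hdac3, a deacetylase that works with REV-ERB proteins, did not (0.21 as deposited, 0.06 with an adjusted p of 0.251 under that scaling). The median of the list was 0.12, beside 0.148 for all genes. Of the 19 genes 3 had a WT rhythm, near the 13.7% of all genes: Fbxl21, Usp2 and Btrc, of 1.13 (SE 0.17), 1.24 (SE 0.24) and 0.40 (SE 0.09) log2 units from peak to trough. None had a KO rhythm, 2 at an unadjusted p, and none differed in rhythm, 1 at an unadjusted p (limma).

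The other bHLH-PAS genes, relatives of the activators, and their coactivators had no rhythm call. Of 15 genes 10 were tested, and 0 had a rhythm in WT or in KO, with 1 at an unadjusted p under 0.05 in each (limma). As deposited 6 were higher in KO and 0 lower, against 50.9% and 10.0% of all genes, and under median-of-ratios scaling 3 were higher and 2 lower, against 22.1% and 22.2%, so the counts of higher genes are near the background. Sim2 (0.76, SE 0.08, adjusted p 6.51e-07) and Sim1 (0.74, SE 0.09, adjusted p 1.59e-06), transcription factors that pair with ARNT proteins, were higher under both. Ahr, the dioxin receptor, was higher by 0.30 (adjusted p 7.64e-04), also under both, and Hif1a by 0.26 (adjusted p 0.00108) as deposited only. The median was 0.19.

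Kidney markers were present in every library. Summed proximal tubule markers were 1891 to 2262 TPM in WT and 1826 to 2509 TPM in KO. Counts of markers called higher or lower in KO, as deposited, are to be read against 50.9% and 10.0% of all genes. All 4 collecting duct markers were higher in KO, with sums of 149.7 to 263 TPM in WT and 194 to 469 TPM in KO, and so were all 3 podocyte markers, with 50.1 to 70.9 TPM and 68.3 to 99.4 TPM. The library labelled KO ZT4 A had the lowest KO collecting duct sum, 194 TPM. Of 3 thick ascending limb markers 2 were higher and 1 lower (sums of 1147 to 1745 TPM in WT and 1192 to 1445 TPM in KO), both distal convoluted tubule markers were higher (167 to 231 TPM and 174 to 315 TPM), and of 3 endothelial markers 1 was higher (57.3 to 82.5 TPM and 54.5 to 94.0 TPM). Of 5 proximal tubule markers 1 was higher and 1 lower, and of 3 liver markers likewise (29.1 to 50.3 TPM and 38.4 to 85.8 TPM). Of 3 immune markers 1 was lower in KO, with sums of 134 to 284 TPM in WT and 99.5 to 184 TPM in KO. Adrenal cortex markers were under 0.05 TPM in sum everywhere, adipocyte markers reached 9.41 TPM in WT and 10.5 TPM in KO, and muscle markers 1.64 TPM. The part of cell composition in the differences of the activators was not tested, and in whole kidney a change in the number of cells of a type and one in RNA per cell cannot be told apart.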

How the data were processed

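The authors deposited TPM per transcript for 24 kidney libraries, made with kallisto 0.42.4 on mm10/GRCm38 per the submitters' processing notes. The index is not given in the sources used here. The 4C-seq tables of the series were not used here. Of 88198 transcripts, 86119 were matched to GENCODE M21 genes by identifier without version and summed per gene. The 2079 unmatched transcripts held 1.35% to 2.24% of TPM. The members and gene lists were chosen with earlier results of these data known.

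Values were analysed as log2(TPM + 0.1) with limma 3.58.1 in R 4.3.3 (eBayes with trend and robust options), over 12874 genes averaging 1 TPM or more and 34231 transcripts averaging 0.5 TPM or more. The threshold was a Benjamini-Hochberg adjusted p under 0.05 over all features of each test. The genotype difference had time as a 6-level factor and no term for a change of the difference over the day. Rhythm was a 24-hour cosine and sine per genotype, tested by a moderated F statistic, and the peak-to-trough value is the fitted maximum minus minimum. Tests of the difference in rhythm compared both terms between genotypes. A further fit compared genotypes at each time. Named genes were, for each activator, the 5 highest and 3 lowest by Pearson's r over 12 WT libraries, and from each list up to 4 genes with the smallest p for the genotype difference and for the WT rhythm. Rorb, Bhlhe41 and other listed genes under the filter were not tested. Nr1d2 in the library check was picked with its values in view. Some listed genes that the rule names are not reported here.

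The letters A and B are shared by all groups. The labels do not say what same-lettered libraries share, so the letters were not taken as pairs. Over 66 pairs of groups the correlation of the deviations of same-lettered libraries from their group means was between -0.323 and 0.338 (median 0.022). It was beyond 0.1 on the positive side in 21 of them and on the negative side in 12. The fits were tested on simulated data first. Alternatives were the pseudocount, the filter, median-of-ratios scaling, coding transcripts only, a replicate block, other models, and each library left out. Those for the separate times without each library, the lists and KO correlations without 1 library or rescaled, and the motif AAAGTAGGT were chosen after seeing the data.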

Additional observations from a re-analysis of the deposited data

Results flagged for a closer look

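The 24-hour rhythm differed between the genotypes by a test of the difference itself for Arntl, with a peak-to-trough value 4.79 log2 units larger in WT than in KO, and for Npas2, by 3.99. The same held for the long Npas2 transcript, by 3.76, and the short one, by 3.48 (limma, adjusted p of 3.12e-05 and 4.11e-04). Groups of 2 libraries were too small for a test of the gap between a library and the rest of its own group. The library labelled KO ZT4 A was singled out against all KO and WT libraries instead.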

How the results depend on the processing

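The rhythm of Arntl and Npas2 in WT, its difference from KO, and the higher Npas2 and Clock levels in KO kept their direction and their side of the threshold in every alternative run. Median-of-ratios scaling brought the rhythm difference of Clock past the threshold (0.43, adjusted p 0.0342). Leaving out 1 library gave 0.39 to 0.60 for that difference, past the threshold without KO ZT4 replicate B or KO ZT8 replicate A, and 0.81 to 1.15 for the genotype difference of Arntl, past it in 7 of 24 fits. The cause was not tested. Signs turned for differences that had not passed. Under median-of-ratios scaling Clock at ZT0 was -0.12 and Arntl at ZT4 was -0.081. With 1 library left out Clock at ZT0 ranged from -0.012 to 0.078, Arntl at ZT4 from -0.14 to 0.24, the KO minus WT share of the long Npas2 transcript from -3.94 to 0.76 percentage points and that of the short one from -0.89 to 3.81. Pairs of gene and time past the threshold numbered 9 to 13 with 1 library left out and 11 with a pseudocount of 1. With the replicate block the genotype difference stayed at 1.002 for Arntl (adjusted p 0.0644), 0.44 for Clock and 3.26 for Npas2, and the block changed no call. TPM keeps no depth, so values under about 1 TPM, such as Arntl2 and the WT troughs, are printed with no counting error.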
